A study of Mus musculus with 12 samples.

Results

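The enzymes that break down fatty acids in mitochondria were followed in the epithelium of the pubertal mouse mammary gland. The group was defined by name, as the 10 genes Cpt2, Acadvl, Acadl, Acadm, Acads, Echs1, Hadha, Hadhb, Acaa2 and Etfdh, and every probe that the platform annotation gives to one of them was taken. Of these 10 genes, 9 had a probe, 1 probe each, among 12913 genes named on the array, and all 9 had a value on every array. Hadha, the partner subunit of Hadhb, was not analysed here.

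Terminal end buds, the club-shaped growing tips of the ductal tree, were hybridised on 6 arrays, and mature ducts, the tubes left behind them, on another 6. On all 12 arrays the Cy3 channel carried distal stroma, the part of the fat pad that the epithelium has not yet entered, and the Cy5 channel carried the epithelial structure. All tissue came from mice 5 weeks old that carry the B-actin-GFP reporter, a fluorescent protein under an actin promoter that is active in most cell types and served to see the gland while it was dissected, so the reporter is shared by end buds, ducts and stroma. The labels name no treatment and no other allele, and they do not say whether animals were pooled, how many animals the arrays stand for, or how the stromal RNA was made up. Values are log2 ratios of epithelium over stroma, so a value below 0 is lower in epithelium. No source used here states the base of the logarithm, and a natural logarithm would make each fold larger without changing a sign.

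In β-oxidation, long fatty acids are carried into the mitochondrion as carnitine esters and are shortened there in repeated rounds of dehydrogenation, hydration, a second dehydrogenation and thiolysis. Each round yields acetyl-CoA for the citric acid cycle and passes electrons to the respiratory chain. Heart, muscle, liver and brown fat are known for high capacity in this pathway, and in the mammary gland the epithelium grows into a pad of fat whose adipocytes store and release the same fatty acids.

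The labels of the dissection were checked with epithelial keratin and adhesion genes. Krt18, a keratin of luminal cells, stood at 5.19 in end buds and 4.98 in ducts, and Epcam, an epithelial adhesion protein, at 4.43 in end buds and 4.48 in ducts. Of 11 luminal markers, 11 were higher than stroma in both structures. The deposited ratios spread more widely on end bud arrays, where the SD over all probes was 0.594 ± 0.041, than on duct arrays, where it was 0.430 ± 0.037 (SD over arrays, n = 6 each). The duct spread was 72.4% of the end bud spread, which bears on every comparison of the 2 structures below.

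The promoters of the pathway are shown first, because nuclear receptors of the PPAR and ERR families are known to act on many of its genes through sites built on AGGTCA. RefSeq (GRCm38.p6) promoters were listed for 9 of the 10 genes, and the 250 bases before the start were searched on both strands. AGGTCA was in 3 of 9, Acadm, Acadvl and Echs1, against 4607 of 32851 promoters of all genes. The longer forms that contain it, TNAAGGTCA and its direct repeat with any 1 base between, were in 0 of 9, against 1.14% and 0.0335% of all promoters. GGGCGG, a site of SP family factors that does not overlap these, was in 6 of 9, against 32.7% of all promoters. A match is a run of letters and not a measured site. The 4 windows below are read 5′ to 3′ on the strand of the gene and end at the base before the start. Capitals mark AGGTCA in Acadvl and its reverse complement in Acadm, and GGGCGG or its reverse complement in Hadhb and Acadl. The windows were picked for display by the ratios of their genes. Acadvl and Acadm had the lowest ratios, Hadhb a large difference between the structures, and Acadl went its own way. Echs1, not shown, held both motifs in a window that overlaps another gene, Paox. GGGCGG was also in Cpt2, Acads and Hadha. No link between a match and a ratio was tested.
Acadvl, chr11:70015429-70015678, minus strand: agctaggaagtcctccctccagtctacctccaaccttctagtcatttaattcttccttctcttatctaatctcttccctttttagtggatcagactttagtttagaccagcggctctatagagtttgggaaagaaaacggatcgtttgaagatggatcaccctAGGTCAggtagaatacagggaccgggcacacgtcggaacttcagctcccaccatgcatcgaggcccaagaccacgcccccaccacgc
Acadm, chr3:153944644-153944893, minus strand: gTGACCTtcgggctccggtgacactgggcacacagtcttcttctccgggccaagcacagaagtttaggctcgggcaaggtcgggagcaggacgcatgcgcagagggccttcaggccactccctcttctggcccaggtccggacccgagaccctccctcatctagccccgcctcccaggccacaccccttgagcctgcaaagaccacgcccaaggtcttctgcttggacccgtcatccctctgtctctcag
Hadhb, chr5:30155003-30155252, plus strand: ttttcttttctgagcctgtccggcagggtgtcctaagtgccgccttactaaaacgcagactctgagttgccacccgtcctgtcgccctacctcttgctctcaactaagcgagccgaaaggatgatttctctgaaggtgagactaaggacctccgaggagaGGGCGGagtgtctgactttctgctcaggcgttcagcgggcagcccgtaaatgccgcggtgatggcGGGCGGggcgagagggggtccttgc
Acadl, chr1:66863310-66863559, minus strand: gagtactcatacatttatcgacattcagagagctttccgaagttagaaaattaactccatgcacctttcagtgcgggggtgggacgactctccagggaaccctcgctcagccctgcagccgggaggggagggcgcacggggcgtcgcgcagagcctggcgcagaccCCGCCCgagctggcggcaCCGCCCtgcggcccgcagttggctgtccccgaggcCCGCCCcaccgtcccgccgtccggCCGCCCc
In Acadvl the AGGTCA match lay 87 to 82 bases before the start, and in Acadm its complement lay 249 to 244 bases before it. Hadhb had 2 matches of GGGCGG and Acadl had 4. Hadhb and Hadha start 272 bases apart on opposite strands, so the Hadhb window lies between the starts of the 2 subunits of the same enzyme.

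Most enzymes of the pathway were far lower in end buds than in stroma. Of 9 measured genes, 8 were lower in end buds at an adjusted p of 0.05 (limma, Benjamini-Hochberg over 17589 probes), where 20.4% of all probes were lower, and 0 were higher, where 23.2% of all probes were higher. The median of the 9 genes was -1.81, against 0.015 over all probes. In ducts 9 of 9 were lower, where 12.2% of all probes were lower and 16% were higher, with a median of -0.99 against 0.015 over all probes. The exception in end buds was Acadl. End bud and duct values share the kind of stroma they are set against, so the 2 comparisons are not independent. Stroma never had an array of its own and counts as 1 control sample whose spread is left out, and the p-values reflect array-to-array spread alone, which may be technical. Stroma was in Cy3 on every array, so an effect of the dye on a probe cannot be told apart from a difference from stroma. In tissue pieces, fewer cells of a type and less RNA per cell cannot be told apart.

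**Figure D1:**
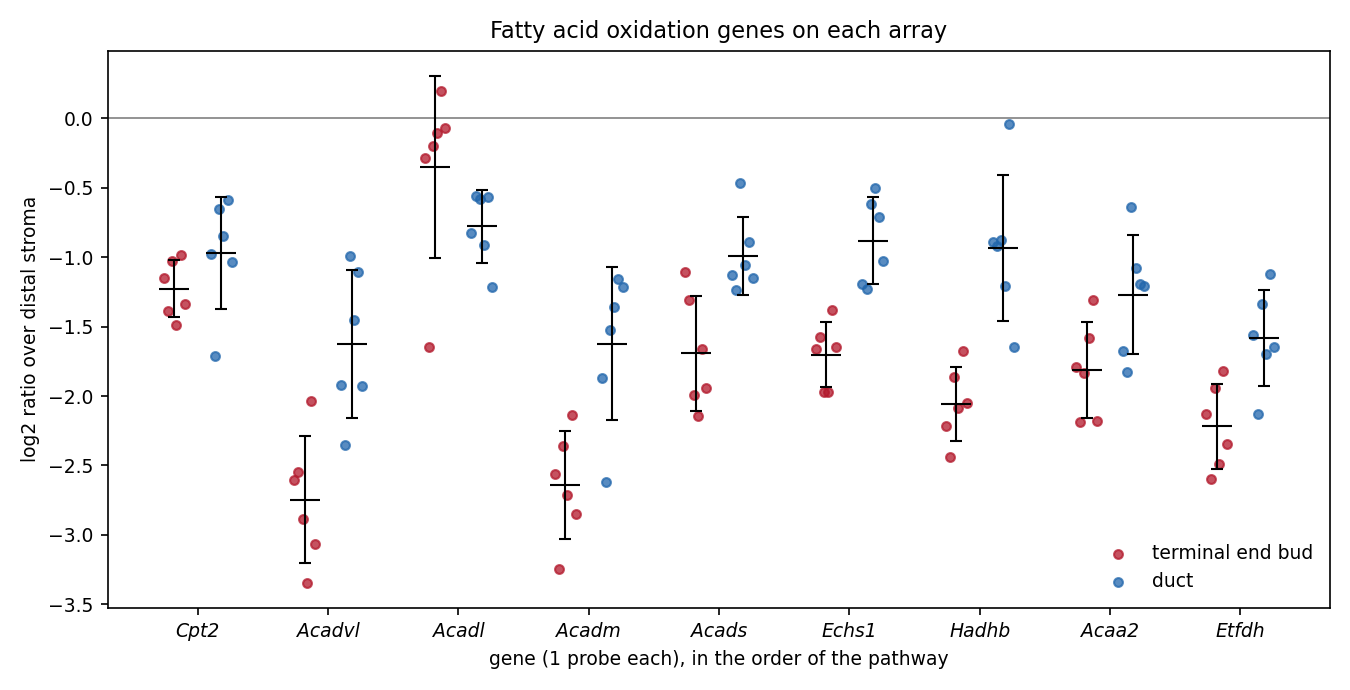
Log2 ratio over distal stroma (vertical axis) of the 9 measured genes in 6 terminal end bud arrays and 6 duct arrays, 1 point per array, with bars for the mean and SD. The genes lie below 0 on every array, except Acadl on 1 end bud array, and the end bud points of Hadhb and Echs1 all lie below the duct points. The share of all probes separated in this way was not counted.

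Cpt2, on chromosome 4, encodes the inner membrane enzyme that turns acylcarnitine back into acyl-CoA inside the mitochondrion. Its ratio was lowest at -1.49, median -1.24 and highest at -0.98 in end buds, against -1.71, -0.91 and -0.59 in ducts. All 12 arrays were below stroma and the 2 structures overlapped, with the lowest value on a duct array. Cpt2 was 2.34-fold lower than stroma in end buds (log2 -1.23 ± 0.12 SE, adjusted p = 9.75e-07 by limma) and 1.96-fold lower in ducts (-0.97 ± 0.12, adjusted p = 3.35e-05).

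The acyl-CoA dehydrogenases, which open each round and differ in the chain length they prefer, held both the lowest values and the exception. Acadvl, on chromosome 11, handles very long chains and was lowest at -3.34, median -2.74 and highest at -2.04 in end buds, against -2.35, -1.68 and -0.99 in ducts. Acadm, on chromosome 3, handles medium chains and was lowest at -3.25, median -2.63 and highest at -2.13 in end buds, against -2.62, -1.44 and -1.16 in ducts. For both genes the end bud arrays reached lower than any duct array, and the groups overlapped. Acadvl was 6.71-fold lower than stroma in end buds (-2.75 ± 0.18 SE, adjusted p = 1.93e-08) and 3.08-fold lower in ducts (-1.62 ± 0.18, adjusted p = 1.19e-05). Acadm was 6.25-fold lower in end buds (-2.64 ± 0.17 SE, adjusted p = 1.95e-08) and 3.08-fold lower in ducts (-1.62 ± 0.17, adjusted p = 8.97e-06). On the median end bud array these 2 genes ranked within the lowest 0.173% (Acadvl) and 0.119% (Acadm) of all probes, and on the median duct array within the lowest 0.227% (Acadvl) and 0.185% (Acadm).

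Acads, on chromosome 5, is the short-chain dehydrogenase. It was lowest at -2.14, median -1.80 and highest at -1.11 in end buds, against -1.24, -1.09 and -0.47 in ducts. Of the 6 end bud arrays, 5 were below every duct array. Acads was 3.23-fold lower than stroma in end buds (-1.69 ± 0.13 SE, adjusted p = 8.94e-08) and 1.98-fold lower in ducts (-0.99 ± 0.13, adjusted p = 5.48e-05).

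Acadl, on chromosome 1, is the long-chain dehydrogenase, an enzyme with particular weight in the mouse. Its 6 end bud arrays read -0.28, -1.65, -0.20, -0.11, 0.20 and -0.07, against -0.82, -0.56, -0.58, -0.91, -0.57 and -1.22 in ducts. A single end bud array was far below the other 5, which stayed within 0.29 of stroma, while all 6 duct arrays were clearly below it. In end buds the mean was -0.35 ± 0.18 (SE, adjusted p = 0.13), and without the second array it was -0.09. In ducts Acadl was 1.71-fold lower than stroma (-0.78 ± 0.18 SE, adjusted p = 0.00455). Over the 2 duct arrays with slide numbers up to 193 it was -0.69 with an adjusted p of 0.193. On the median end bud array Acadl ranked at 30.2% of all probes from the bottom, and on the median duct array at 3.07%.

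The enzymes after the first step were lower in both structures. Echs1, on chromosome 7, encodes the short-chain hydratase and was lowest at -1.97, median -1.66 and highest at -1.38 in end buds, against -1.23, -0.87 and -0.50 in ducts. Hadhb, on chromosome 5, encodes the thiolase subunit of the trifunctional protein, which works on long chains at the inner membrane. Hadhb was lowest at -2.44, median -2.07 and highest at -1.68 in end buds, against -1.65, -0.91 and -0.04 in ducts. For both genes every end bud array was below every duct array. The share of all probes without overlap was not counted, and the wider spread of the end bud arrays moves with such a separation. Echs1 was 3.25-fold lower than stroma in end buds (-1.70 ± 0.10 SE, adjusted p = 1.14e-08) and 1.84-fold lower in ducts (-0.88 ± 0.10, adjusted p = 2.3e-05). Hadhb was 4.16-fold lower in end buds (-2.06 ± 0.15 SE, adjusted p = 6.26e-08) and 1.91-fold lower in ducts (-0.93 ± 0.15, adjusted p = 0.000335), where 1 array was close to stroma.

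Acaa2, on chromosome 18, is the matrix thiolase that closes a round on shorter chains. It was lowest at -2.19, median -1.81 and highest at -1.31 in end buds, against -1.83, -1.20 and -0.64 in ducts, and the structures overlapped. Acaa2 was 3.51-fold lower than stroma in end buds (-1.81 ± 0.14 SE, adjusted p = 1.13e-07) and 2.41-fold lower in ducts (-1.27 ± 0.14, adjusted p = 1.44e-05). Etfdh, on chromosome 3, passes the electrons of the dehydrogenases on to ubiquinone. It was lowest at -2.60, median -2.23 and highest at -1.82 in end buds, against -2.13, -1.60 and -1.12 in ducts. All 12 arrays were at -1.12 or lower, and Etfdh was 4.66-fold lower than stroma in end buds (-2.22 ± 0.12 SE, adjusted p = 4.13e-09) and 2.99-fold lower in ducts (-1.58 ± 0.12, adjusted p = 4.92e-07).

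The members moved together from array to array to different degrees. Over the 6 end bud arrays 29 of 36 pairs of genes had a correlation above 0, with a median of 0.502, and over the 6 duct arrays 32 of 36 did, with a median of 0.657. Cpt2 and Etfdh were the closest pair in both, at 0.962 in end buds and 0.936 in ducts. The lowest pair was Acads with Hadhb in end buds, at -0.502, and Acadm with Acadl in ducts, at -0.421. The points share their array and its spread, so these correlations are a description. The mean of the 9 genes lay between -2.11 and -1.42 in end buds (mean -1.83 ± 0.24 SD) and between -1.62 and -0.82 in ducts (mean -1.18 ± 0.31 SD, n = 6 each), and the second array was the lowest of each group.

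Between the structures, 6 of the 9 genes were lower in end buds than in ducts on the deposited scale: Acadvl, Acadm, Acads, Hadhb, Echs1 and Etfdh, where 10.4% of all probes were lower. No member was higher at the threshold (0 of 9), where 8.32% of all probes were higher. The median difference of the 9 genes was -0.70, against 0.00 over all probes. After quantile normalization, which gives all arrays the same spread, 0 of 9 passed the limma threshold and Cpt2, Acaa2 and Etfdh turned to 0.27, 0.21 and 0.26, and after scaling to a common median absolute deviation 2 of 9 passed, Echs1 and Hadhb. The wider spread of the end bud arrays moves with this difference, and its part was not tested beyond these scalings. End buds and ducts never shared an array, so each difference or fold between them compares 2 ratios over stroma. Stroma cancels there only if it was the same RNA, which the labels do not say.

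Hadhb and Acadvl had the largest differences. Hadhb was -1.13 ± 0.21 (SE, adjusted p = 0.00192 by limma) and Acadvl -1.12 ± 0.25 (adjusted p = 0.00574), each 2.18-fold lower in end buds than in ducts. Acadm differed by -1.02 ± 0.24 (adjusted p = 0.00821) and Echs1 by -0.82 ± 0.15 (adjusted p = 0.00124). Acads differed by -0.70 ± 0.18 (adjusted p = 0.0136) and Etfdh by -0.64 ± 0.17 (adjusted p = 0.0161). Acaa2 at -0.54 ± 0.20 (adjusted p = 0.0757) and Cpt2 at -0.26 ± 0.17 (adjusted p = 0.346) did not pass, and Acadl had the opposite sign at 0.43 ± 0.25 (adjusted p = 0.297). Without the second end bud array Acadl was 0.68 higher in end buds than in ducts (adjusted p = 0.0028), and without the second duct array Cpt2 was -0.41 (adjusted p = 0.03).

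The size of the duct ratio relative to the end bud ratio differed among the genes. The mean duct ratio was 45.3% of the mean end bud ratio for Hadhb, 51.7% for Echs1, 58.4% for Acads, 59.1% for Acadvl and 61.5% for Acadm. It was 70.0% for Acaa2, 71.2% for Etfdh and 78.9% for Cpt2. The duct spread over all probes was 72.4% of the end bud spread, and its part in these shares was not tested. Acadl went the other way, with a duct ratio at 221% of the end bud ratio. These are descriptions of log2 ratios with no test.

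**Figure D2:**
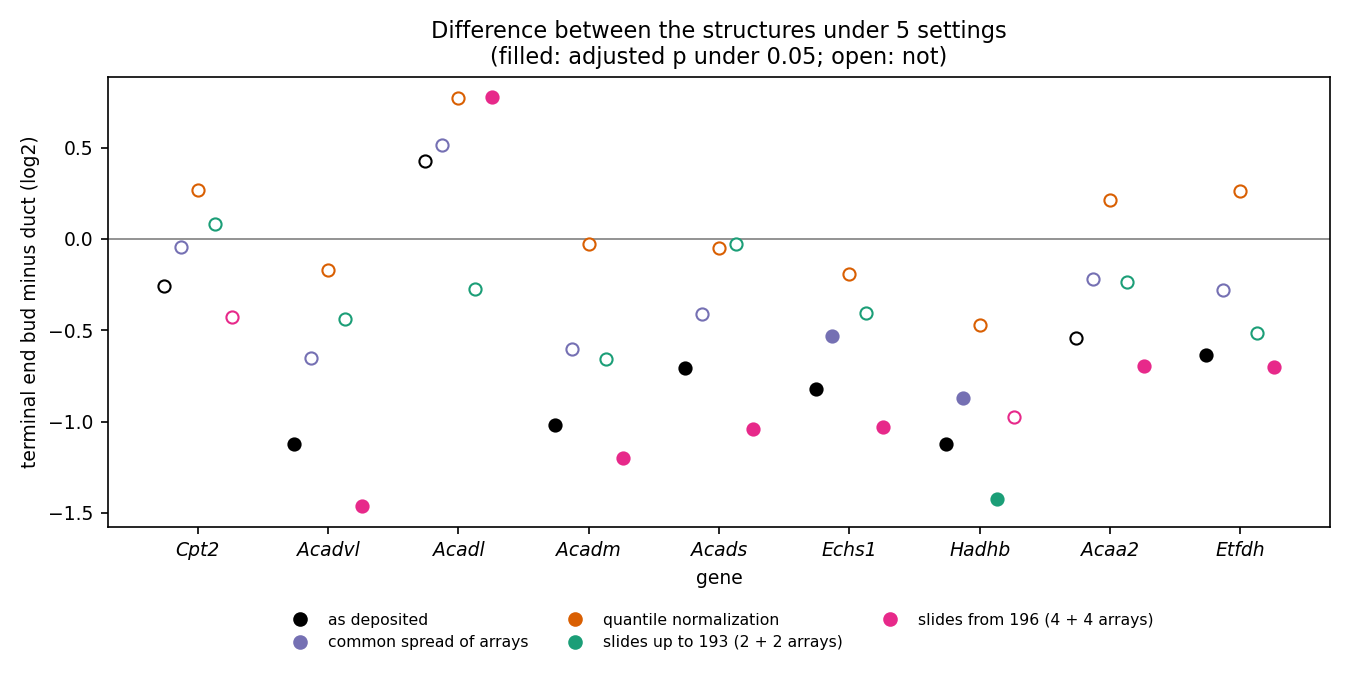
Difference of terminal end bud minus duct (log2, vertical axis) for each of the 9 genes (horizontal axis), as deposited, under 2 other scalings and on early or late slides alone, with filled points past an adjusted p of 0.05. As deposited 6 genes pass and lie below 0, after quantile normalization 0 pass and Cpt2, Acaa2 and Etfdh lie above 0.

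Slide numbers in the titles allow the same 12 arrays to be paired, which is not separate support. In number order they form 6 neighbouring pairs with 1 end bud and 1 duct array each. Over these 6 pairs, the end bud was lower than the duct in 6 of 6 pairs for Acadm, Acadvl, Hadhb, Acaa2, Echs1 and Etfdh, in 5 of 6 for Cpt2 and Acads, and in 1 of 6 for Acadl. With these pairs as a fixed block, 7 of 9 passed, with Acaa2 added at an adjusted p of 0.0397. On slides up to 193 alone, with 2 arrays a group, 1 of 9 passed, Hadhb at -1.42 (adjusted p = 0.0139), and Cpt2 and Acadl turned to 0.079 and -0.28. On slides from 196 alone, with 4 arrays a group, 6 of 9 were lower, Hadhb missed at -0.98 (adjusted p = 0.055), Acaa2 passed at -0.70, and Acadl was higher in end buds at 0.78 (adjusted p = 0.0118). The share of all probes lower in 6 of 6 pairs, or called under these settings, was not counted. No source used here states what the slide numbers stand for.

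The genes around the core pathway were counted from lists by role. For every list, the shares of all probes to set beside the counts are 20.4% lower and 23.2% higher in end buds than in stroma. They are 12.2% lower and 16% higher in ducts, and 10.4% lower and 8.32% higher in end buds than in ducts. Of 17 measured genes of fatty acid entry and the carnitine shuttle, 11 were lower than stroma and 1 higher in end buds (median -1.30), 11 lower and 1 higher in ducts (median -0.73), and 7 lower and 0 higher in end buds than in ducts (median -0.40). Cpt1b, the muscle and brown fat form of the enzyme that makes acylcarnitine, had the lowest mean ratios of this list, between -3.83 and -2.49 in end buds, against -2.62 to -1.40 in ducts. It was 9.29-fold lower than stroma in end buds (-3.21 ± 0.16 SE, adjusted p = 1.97e-09) and 4.14-fold lower in ducts (-2.05 ± 0.16, adjusted p = 5.57e-07). Between end buds and ducts Cpt1b differed by -1.17 (adjusted p = 0.00212), and after quantile normalization by 0.043.

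Cpt1a, the form of most other tissues, was the single gene of that list above stroma, and is named after its values were seen. Its end bud arrays lay between 0.24 and 0.91, against 0.48 to 0.71 in ducts. Cpt1a was at 0.68 ± 0.07 in end buds (SE, adjusted p = 3.27e-06) and 0.60 ± 0.07 in ducts (adjusted p = 3.87e-05), so the 2 forms stood on opposite sides of stroma in both structures. Slc25a20, the carrier that exchanges acylcarnitine across the inner membrane, was at -2.15 in end buds (adjusted p = 2.8e-09) and -1.52 in ducts (adjusted p = 3.38e-07). Fabp3, a fatty acid binding protein of muscle and brown fat, was at -2.97 in end buds and -1.72 in ducts. Cd36, a fatty acid uptake receptor, was at -1.96 in end buds and -0.73 in ducts, and Acacb, which makes the malonyl-CoA that restrains the shuttle, at -2.25 in end buds and -0.79 in ducts.

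Of 22 measured auxiliary mitochondrial enzymes, which handle other acyl chains and pass electrons, 21 were lower and 0 higher in end buds than in stroma (median -1.23), 20 lower in ducts (median -0.67), and 11 lower and 0 higher in end buds than in ducts (median -0.46). Hadh, the matrix dehydrogenase of the third step, was at -1.59 in end buds and -1.07 in ducts, and Decr1, which serves unsaturated chains, at -1.53 in end buds and -0.86 in ducts. Etfa and Etfb, the subunits that feed electrons to Etfdh, were at -1.69 and -0.82 in end buds, against -0.98 and -0.90 in ducts. Acadsb, a dehydrogenase of branched chains, differed most between the structures, at -2.01 in end buds and -0.42 in ducts (difference -1.59 ± 0.10 SE, adjusted p = 6.72e-07). Its groups did not overlap, a trait that was not counted over all probes. Hsd17b10 was at -0.12 in end buds (adjusted p = 0.28) and was the auxiliary gene that missed there. Of the 2 measured ketone body enzymes, Bdh1 was at 0.53 in end buds and 0.42 in ducts, and Oxct1, which uses ketone bodies, at -1.33 in end buds and -0.86 in ducts.

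Of 15 measured genes of peroxisomal oxidation, which shortens the longest and branched chains, 12 were lower and 1 higher in end buds than in stroma (median -0.85), and 12 lower and 0 higher in ducts (median -0.37). Between end buds and ducts 7 were lower and 1 higher (median -0.48). Phyh, of the oxidation of branched fatty acids, was at -2.06 in end buds and -1.06 in ducts, and Hsd17b4, the D-bifunctional protein, at -1.66 in end buds and -0.75 in ducts. Acox2, an oxidase of branched chains, was the gene above stroma in end buds, at 0.38 (adjusted p = 0.048). Ehhadh, the L-bifunctional protein, was the gene higher in end buds than in ducts, at 0.53 (adjusted p = 0.0457), a call that did not hold under 14 of 25 alternatives.

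Of 23 measured regulators and targets of the pathway, 15 were lower and 2 higher in end buds than in stroma (median -0.60), 14 lower and 2 higher in ducts (median -0.39), and 7 lower and 1 higher in end buds than in ducts (median -0.21). Ppara, the nuclear receptor best known for driving these genes, was at -2.81 ± 0.18 in end buds (SE, adjusted p = 1.67e-08) and -1.76 in ducts, with a difference of -1.05 (adjusted p = 0.00886). Ppargc1a, a coactivator of mitochondrial genes, was at -1.70 in end buds and -1.23 in ducts, and Esrra, a partner of it, at -0.89 in end buds and -0.66 in ducts. Pdk4, which turns pyruvate away from oxidation, was at -2.30 in end buds and -1.31 in ducts, and Lpin1, a phosphatase and coactivator, at -2.34 in end buds and -1.01 in ducts. Acot1, a cytosolic acyl-CoA thioesterase, was above stroma, at 1.80 in end buds and 1.22 in ducts. The other calls above stroma were small, Nrf1 in end buds at 0.24 and Nrip1 in ducts at 0.23. In end buds Nrip1 was below stroma at -0.60, a difference of -0.83 from ducts (adjusted p = 1.24e-05 by limma). Ppard was the gene higher in end buds than in ducts, at 0.37 (adjusted p = 0.0439).

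**Figure D3:**
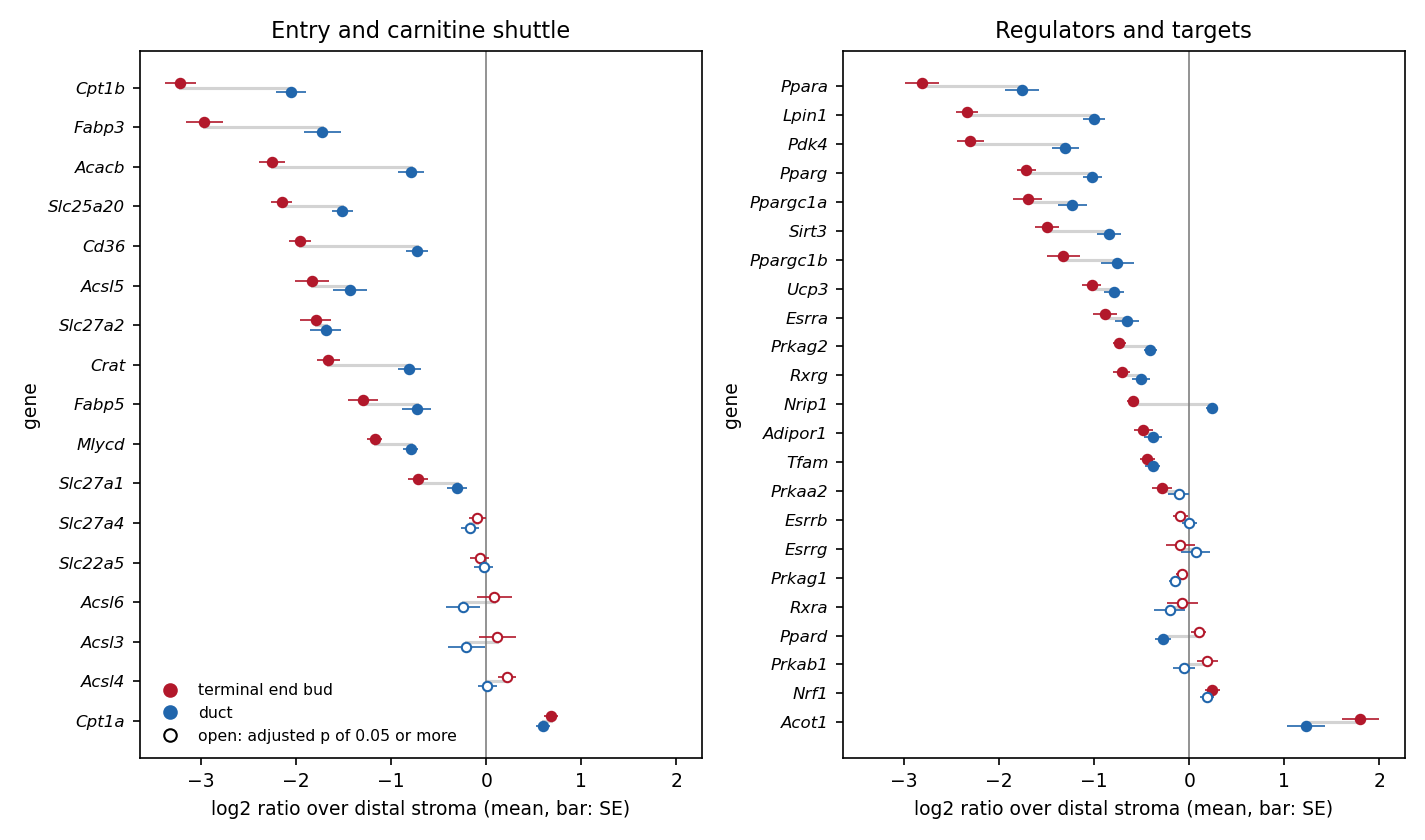
Mean log2 ratio over distal stroma in terminal end buds and in ducts for the measured genes of entry and the carnitine shuttle (left) and the regulators and targets (right), with bars for the SE of the limma fit and open points at an adjusted p of 0.05 or more. Cpt1b stands at -3.21 in end buds and -2.05 in ducts, while Cpt1a stands at 0.68 in end buds and 0.60 in ducts.

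The citric acid cycle, which takes up the acetyl-CoA, was mostly lower as well, and glycolysis was mixed. Of 20 measured cycle genes, 17 were lower and 0 higher in end buds than in stroma (median -1.71), 17 lower in ducts (median -1.02), and 9 lower in end buds than in ducts (median -0.50). Dld, a subunit of the pyruvate and oxoglutarate dehydrogenases, was at -2.81 in end buds and -1.35 in ducts, and Idh3g, a subunit of isocitrate dehydrogenase, at -2.78 in end buds and -1.44 in ducts. Of 14 measured glycolysis genes, 7 were lower and 2 higher in end buds than in stroma (median -0.35), 8 lower and 2 higher in ducts (median -0.37), and 1 lower and 1 higher in end buds than in ducts (median 0.01). Aldoc, an aldolase form known from brain, was the highest of them, at 4.003 in end buds and 3.90 in ducts, followed by the hexokinase Hk1 at 1.06 in end buds and 0.71 in ducts. Between end buds and ducts Pgk1 was higher, at 0.69, and Hk2 lower, at -0.74, which after quantile normalization was -0.17 (adjusted p = 0.545). The glycolysis counts between end buds and ducts, 1 of 14 each way, were near the shares of all probes, 10.4% lower and 8.32% higher. No test of one list against another was made.

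Markers of fat were mostly lower than stroma in end buds as well. The second end bud array had the lowest mean of the oxidation genes (-2.11) and the highest mean of the white markers (-1.05), with brown markers at -1.825. The fifth end bud array had the highest mean of both the oxidation genes (-1.42) and the brown markers (-1.40). Among ducts, the second array had the lowest mean of both, at -1.62 and -1.68. Of 12 measured white adipocyte markers, 10 were lower and 0 higher in end buds than in stroma and 5 lower in ducts, with an array mean between -1.74 and -1.05 in end buds, against -0.62 to -0.27 in ducts. Of 9 brown adipocyte markers, 7 were lower and 1 higher in end buds and 6 lower in ducts, with an array mean between -1.92 and -1.40 in end buds, against -1.68 to -0.66 in ducts. The brown marker higher than stroma in end buds was Zic1, at 0.82. Ucp1, the uncoupling protein of brown fat, was at -3.54 in end buds and -1.82 in ducts. Fabp4, of adipocytes, was at -2.13 in end buds and -0.82 in ducts, while Adipoq, a hormone of adipocytes, was nearer to stroma, at -0.46 in end buds (adjusted p = 0.00436) and -0.21 in ducts (adjusted p = 0.189). The duct mean as a share of the end bud mean was 64.7% for the 9 oxidation genes, 64.3% for brown markers, 34.7% for white markers and 26.7% for endothelial markers. It was also 62.8% for fatty acid entry and the carnitine shuttle, 61.0% for the citric acid cycle, 60.2% for the regulators and targets, 57.8% for the auxiliary enzymes and 54.9% for peroxisomal oxidation. These shares are descriptions with no test. The part of fat cells in the result was not tested.

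Endothelial markers were also lower, 9 of 9 in end buds and 6 of 9 in ducts, with an array mean between -1.44 and -0.995 in end buds, against -0.61 to -0.17 in ducts. Their part was not tested. Skeletal muscle, another tissue of high oxidation, could enter a dissected fat pad. Its 14 measured markers had an array mean between -0.17 and 0.22 in end buds, against -0.09 to 0.12 in ducts, and 1 was lower (Eno3, -1.34) and 2 higher (Actn3, 0.91, and Tnnc2, 0.21) in end buds, with 1 lower (Tcap, -0.14) and 1 higher (Actn3, 0.64) in ducts. Of 8 fibroblast markers, 1 was lower (Dpt, -1.90) and 2 higher (Col1a1, 1.47, and Fbln1, 0.22) in end buds, and 0 were lower and 3 higher in ducts (Col3a1, 1.04, Col1a1, 0.77, and Dcn, 0.60). Among all probes 20.4% were lower and 23.2% higher in end buds, and 12.2% lower and 16% higher in ducts.

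**Figure D4:**
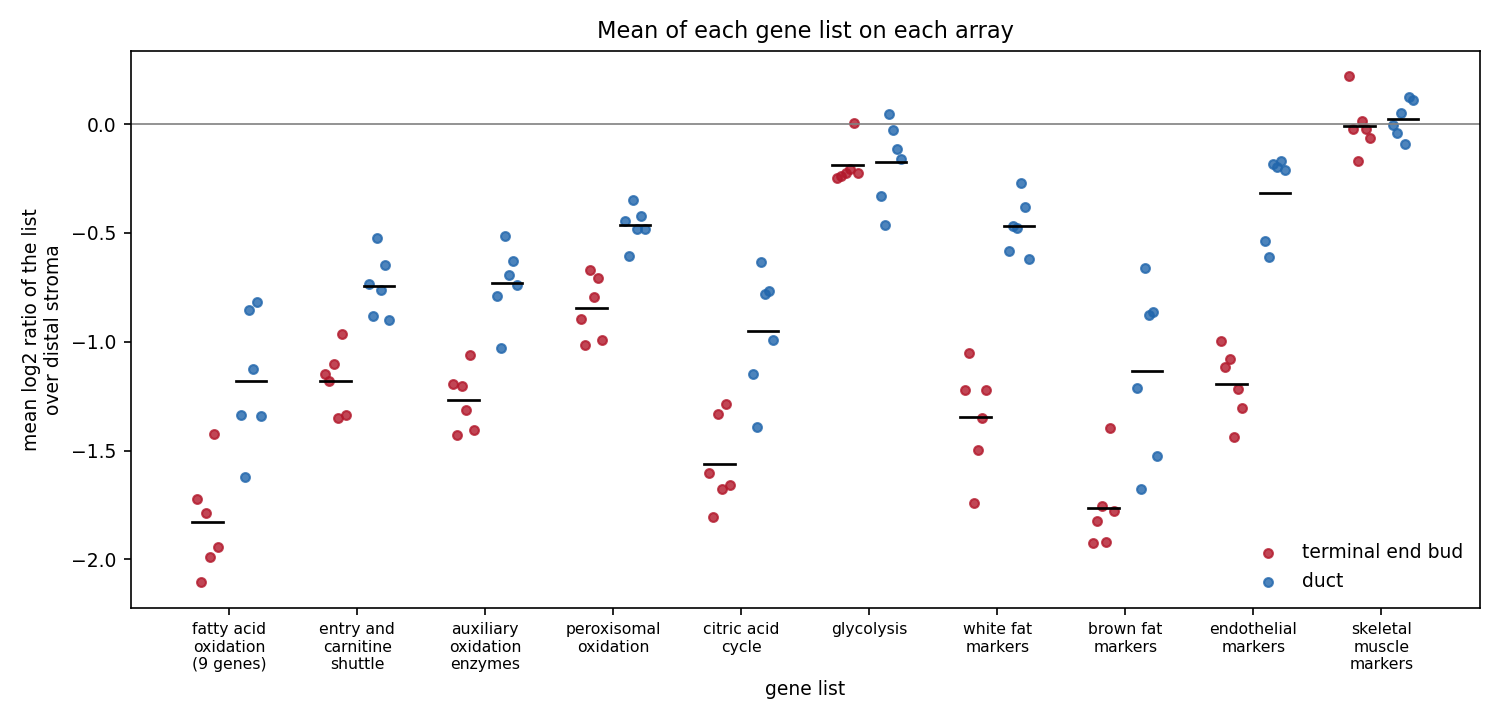
Mean log2 ratio over distal stroma of the 9 oxidation genes and of other gene lists on each of the 12 arrays, terminal end buds left of ducts. Points are arrays and lines are group means. The oxidation genes average -1.83 in end buds and -1.18 in ducts, next to -1.77 and -1.14 for brown adipocyte markers and -1.35 and -0.47 for white adipocyte markers, and muscle markers lie between -0.17 and 0.22 on all arrays.

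The genes whose values followed the mean of the 9 oxidation genes most closely over the 12 arrays were sought among 12825 genes with all values. They were Septin4 (Pearson r = 0.970), Ndufs4 (0.964), S100a13 (0.960), Prkaca (0.958), Suclg1 (0.957) and Jam2 (0.954), where the 99th percentile of all genes was 0.870 and the median 0.0155. Ndufs4 is a subunit of respiratory complex I, Suclg1 a subunit of the citric acid cycle's succinyl-CoA ligase, and Prkaca the catalytic subunit of protein kinase A. The likeness includes the step between the structures, as all 6 were lower in end buds than in ducts, with differences between -0.90 (Suclg1) and -0.58 (Septin4). The 6 genes were picked by r over these same arrays, so their r within each structure is not separate support. Over the 6 end bud arrays r lay between 0.807 (Suclg1) and 0.939 (Jam2). Over the 6 duct arrays it lay between 0.9 (Jam2) and 0.985 (Suclg1). These values are a description, and the 12 points share array spread and structure.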

How the data were processed

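Per the labels, 6 arrays set terminal end bud RNA (Cy5) and 6 set duct RNA (Cy5) against distal stroma RNA (Cy3), with no dye swap. The authors deposited normalized ratios for 17589 probes, read here as log2 values and used as deposited. The scanner, background correction, normalization and log base: not given in the sources used here. Cy5 over Cy3 was taken as the direction. The median of each array was at least 0.01 and at most 0.023, so the deposited values were centred near 0. No signal or background comes with the ratios, so dim probes could not be told from bright ones, and the number of arrays limits the precision.

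Groups follow the labels. Replicate numbers are names without order. One limma 3.58.1 fit (R 4.3.3) of 2 group means over 12 arrays, with eBayes, gave each group against 0 and their difference, with two-sided p-values, Benjamini-Hochberg adjustment across the whole table and a threshold of 0.05. The fit was also run on simulated data with independent noise of equal size in both groups. That simulation had no wider spread of end bud arrays, so it does not bear on the effect of that spread. A gene was read from 1 probe, that with most values and then the first. Platform symbols were used, 14029 matched to RefSeq (GRCm38.p6) by gene number. Named were all members, up to 4 called genes with the largest difference from each list in each comparison (not all are printed), the 6 genes most like the members' mean, and Krt18, Epcam, Adipoq, Fabp4, Plin1 (no probe here) and Ucp1. Cpt1a, Hadh, Decr1, Etfa, Etfb, Ehhadh, Ppargc1a, Esrra and genes that make up a count of 5 or fewer were added after their values were seen where the rule did not take them. The members and lists were chosen with earlier results of these data known. Alternatives covered scaling, probe filters, variance models, slides as block, term or subset, single arrays left out, probe averaging and a minimum difference. The fit without both second arrays was chosen after seeing the data.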

Additional observations from a re-analysis of the deposited data

Results flagged for a closer look

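Acadl had 1 end bud array far from the others, at -1.65 with the nearest at -0.28, a gap of 0.738 of the group's range where 0.625 is the limit for 6 arrays. Of 18 groups examined in this way, chance flags about 1 in 20.

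The ratio over stroma differed between end buds and ducts by the limma fit for 6 genes, Hadhb at -1.13, Acadvl at -1.12, Acadm at -1.02, Echs1 at -0.82, Acads at -0.70 and Etfdh at -0.64, on the deposited scale, where end bud arrays also had the wider spread.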

How the results depend on the processing

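Against stroma, 8 of 9 genes were lower in end buds under all 26 alternatives. In ducts 9 of 9 were lower, except 8 on slides up to 193 alone. Between end buds and ducts the count of 6 became 0 after quantile normalization, 2 after scaling to a common median absolute deviation and 1 on slides up to 193 alone, and lay between 6 and 8 with single arrays left out. Under quantile normalization the difference of end bud minus duct turned to 0.27 for Cpt2, 0.21 for Acaa2, 0.26 for Etfdh and 0.043 for Cpt1b, and on slides up to 193 alone to 0.079 for Cpt2 and -0.28 for Acadl. These 2 scalings give the arrays a common spread, and slides up to 193 leave 2 arrays a group. Leaving out single arrays gave 8 against stroma in end buds and 9 in ducts. The share of all probes called was counted for the main fit alone, so counts under alternatives have no such share beside them. Quantile normalization moved the median probe by at most 0.0124 and a common deviation by at most 0.00175, and centring shifts each array by its own median, at most 0.023. Ehhadh in end buds against stroma (-0.32) lost its call under 14 of 26 alternatives, quantile normalization among them (-0.27). The labels carry no replicate numbers that could pair end bud with duct arrays. Neighbouring slides were used as a fixed block instead, which gave 7 genes, and their estimated correlation was 0.0722.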
